A study of Mus musculus with 2 samples.

Results

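Tumour neutrophils were 132 of 22417 kept cells from mouse B16-F0 melanoma, a transplantable skin tumour line, and 23 of the 132 came from the KO library and 109 from the WT library. A cell was counted as a neutrophil when it met each of the following conditions. It held at least 50 S100a8 and S100a9 UMIs (unique molecular identifiers, each a captured mRNA molecule) per 10000 of its UMIs. It held at least 1 UMI of Csf3r, Cxcr2 or Retnlg. It held no Cd3d, Cd3e or Ncr1 UMI, and at most 1 Cd79a UMI. Kept cells had at least 500 UMIs, at least 200 genes and a mitochondrial share of at most 10%. The cells were thus chosen by their levels of S100a8, S100a9, Csf3r, Cxcr2 and Retnlg, so those levels are a description and support nothing below.

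The study sorted living immune cells (CD45+ and DAPI-) out of tumours and profiled 3' ends of mRNA from 1 KO library and 1 WT library. The labels do not name the gene knocked out, the number of animals pooled, or their age and strain, and they call the cells TIL-Treg although the sort took every CD45+ cell. The KO library held 11398 barcodes and 112544655 UMIs, and the WT library 11432 barcodes and 98438084 UMIs. With 1 library per genotype no difference between genotypes has a replicate check, and no p-value is given. All intervals are 95% and cover counting error only. The libraries shared 42 barcode sequences, 1 of them a WT neutrophil barcode that also marked a kept KO cell, and 0 barcodes were gated as neutrophils in both.

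Neutrophils are short-lived granulocytes made in bone marrow in response to the growth factor receptor Csf3r and drawn into tissue through the chemokine receptor Cxcr2. They fill their granules during development in order, azurophil granules first, then specific and gelatinase granules, and S100a8 and S100a9 together form calprotectin, a calcium-binding and metal-binding complex that fills their cytosol. In tumours they are known to take on varied states, some of them with hypoxia and glycolysis genes, chemokines and Cd274.

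Genes of the gate were high by construction, and other neutrophil markers were present too. The S100a8 and S100a9 sum per cell was 50.1 at the lowest, 1243 at the median and 2771 at the highest per 10000 UMIs in KO cells, and 50.9, 547 and 3158 in WT cells. Both genes lie on chromosome 3 (S100a8 at chr3:90668978-90670035, S100a9 at chr3:90692632-90695721, GRCm38). Summed over whole classes the same 2 genes gave 0.105 per 10000 UMIs in KO monocyte-gated cells and 0.55 in WT ones, and 0.0199 in KO B cells and 1.41 in WT B cells. Csf3r had a UMI in 21 of 23 KO cells and 102 of 109 WT cells, against 0.61% of KO B cells and 1.15% of WT B cells (median depths 3557.5 and 3428 UMIs). Cxcr2 had one in 18 KO cells and 61 WT cells (0% of KO B cells and 0.335% of WT B cells), and Retnlg, a resistin-like secreted protein of granulocytes, in 20 KO cells and 66 WT cells. Of 12 neutrophil markers that the gate did not use, 12 had a UMI in each library, and in WT neutrophils 10 of 11 tested were at least 4-fold over monocyte-gated cells and 11 of 11 over macrophage-gated cells. Over all genes tested, 4.27% were that much higher than in WT monocyte-gated cells and 5.22% than in WT macrophage-gated cells, and 15.4% and 19.7% were that much lower. Ly6g, the usual antibody target on mouse neutrophils, was sparse, with a UMI in 4 of 23 KO cells and 8 of 109 WT cells.

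**Figure D1:**
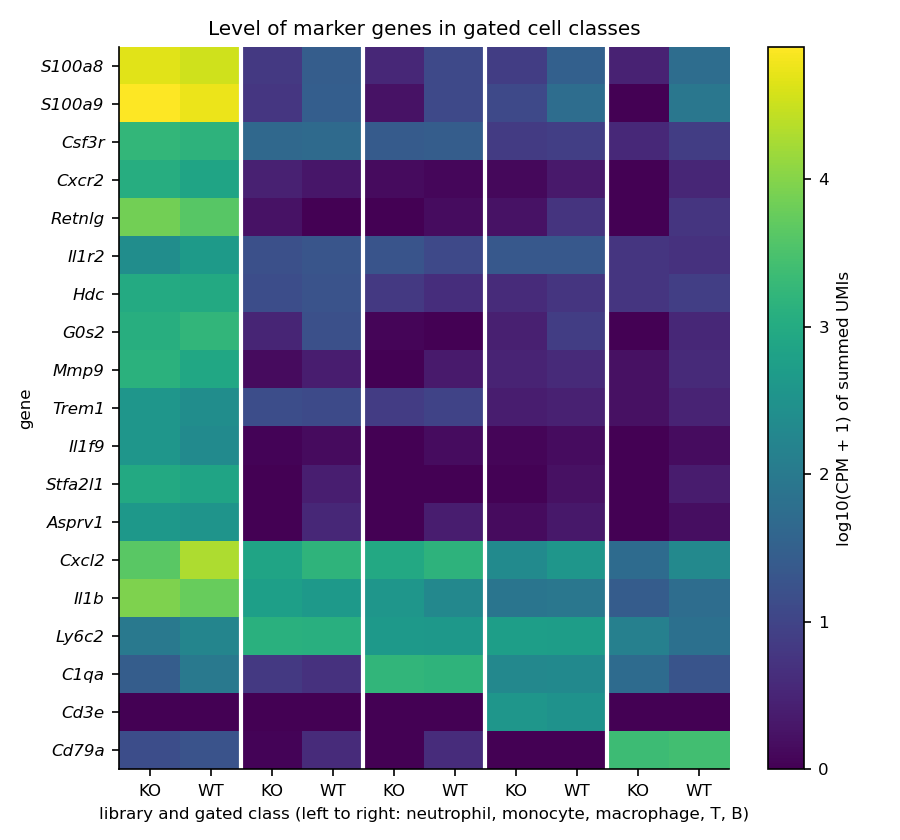
Heat map of the level of marker genes (rows) in gated cell classes of the KO and WT libraries (columns), as log10(CPM + 1) of summed UMIs. Neutrophil columns are brightest for S100a9, at 79027 CPM in KO and 57746 CPM in WT, while Cd3e is lit in T cells and Cd79a in B cells.

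The median KO neutrophil had 2920 UMIs and 1007 genes, and the median WT neutrophil 2905 UMIs and 1006 genes. Both were shallower than their neighbours, since the median monocyte-gated cell had 8917 UMIs in KO and 9722 in WT. The mitochondrial share was 0.856% in the median KO neutrophil and 1.20% in the median WT one.

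Genes of other cell types were low in the gated cells, and a few single cells held most of them. The 8 macrophage markers summed to 345 CPM (UMIs of a gene per 1000000 of the summed cells) in KO neutrophils and 494 CPM in WT neutrophils, against 8231 CPM in WT macrophage-gated cells. The 7 monocyte markers summed to 490 CPM in KO neutrophils and 494 CPM in WT ones, against 4758 CPM in WT monocyte-gated cells. The 6 mast cell and basophil markers were at 0 in both libraries, and the other foreign lists (B, T, NK, dendritic, eosinophil, erythroid and melanoma) had a median of 0 per cell. The gate itself bars Cd3d, Cd3e, Ncr1 and more than 1 Cd79a UMI. Erythroid markers summed to 53.0 CPM in KO neutrophils and 7519 CPM in WT ones, and 1 WT cell held 1447 of the 1452 WT Hbb-bs UMIs. Another WT cell with 9144 UMIs held 30 of 34 WT C1qa UMIs. A WT cell with 9963 UMIs held 161 of 167 WT Ccl7 UMIs, and a further one with 9705 UMIs held 41 of 42 WT Gzma UMIs. The part of these cells in each result was not tested, and 4 of these WT cells were left out as an alternative.

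Barcodes with high S100a8 and S100a9 that missed the gate lacked a receptor UMI or held a lymphoid gene. Of the kept cells over the S100 threshold, 33 in KO and 202 in WT, 3 KO cells and 60 WT cells had no Csf3r, Cxcr2 or Retnlg UMI. A further 7 KO cells and 33 WT cells held a lymphoid gene, and their median depth was 6429 UMIs in KO and 6162 UMIs in WT. The 3 KO cells and 13 WT cells just inside the S100 threshold (50 to 100 per 10000) had 11193 CPM of Cxcl2 in KO and 25599 CPM in WT. The 2 KO cells and 8 WT cells just outside it (25 to 50) had 55591 CPM in KO and 19805 CPM in WT.

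Neutrophils made up 0.205% of 11197 kept KO cells (Clopper-Pearson interval 0.130 to 0.308%) and 0.971% of 11220 kept WT cells (0.798 to 1.17%). The KO share was 0.211 times the WT share (0.129 to 0.334), a log2 ratio of -2.24. Of neutrophil, monocyte and macrophage-gated cells together, neutrophils were 1.57% of 1468 KO cells and 10.6% of 1030 WT cells. Of kept cells without B and T cells they were 0.458% of 5024 KO cells and 2.30% of 4743 WT cells. The sort took all CD45+ cells, so these shares depend on how many other immune cells were loaded: B cells were 2.93% of KO cells and 24.0% of WT cells. The share of neutrophils of each animal and the number of animals behind a library are not known from the labels.

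Transcripts of WT neutrophils were dominated by S100a9 (57746 CPM) and S100a8 (35725 CPM), followed by the long noncoding RNA Malat1, the iron-storage gene Fth1 and the chemokine Cxcl2. UMIs here were not divided by transcript length, because the assay reads only 3' ends, so levels are given as CPM. Chemokines and a cytokine stood among the 20 highest WT genes: Cxcl2 at 19315 CPM, Il1b at 5673 CPM, Ccl3 at 4942 CPM and Ccl4 at 4697 CPM. Il1b encodes the inflammatory cytokine interleukin-1 beta, and Ccl3 and Ccl4 encode chemokines that attract monocytes and T cells. Azurophil granule genes, including Mpo and Elane, had 0 UMIs for all 6 genes in both libraries. Proliferation genes had a UMI for 1 of 10 in KO and 4 of 10 in WT, at 1 to 5 UMIs each. Fcnb, a ficolin of early precursors, was also at 0.

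Against other myeloid cells of the same WT library, 249 of 7114 genes tested were at least 4-fold higher in neutrophils than in both monocyte-gated and macrophage-gated cells, a share of 3.5%. Retnlg, S100a9, Ngp and S100a8 were the first 4 of that list; 3 of them chose the cells, and Ngp had 313 of its 315 WT UMIs in 1 cell. Mmp9, a gelatinase, was 813 CPM in WT neutrophils and 1.48 CPM in WT monocyte-gated cells. Cxcr2, another gene that chose the cells, was 725 CPM in WT neutrophils and 0.942 CPM in WT monocyte-gated cells, which is a description only. Stfa2l1, a stefin, reached 725 CPM in WT neutrophils and 1.61 CPM in WT monocyte-gated cells. G0s2, an inhibitor of lipid breakdown, reached 1685 CPM in WT neutrophils and 14.5 CPM in WT monocyte-gated cells. Stfa2l1, Cstdc4 and other stefins have near-identical copies whose counts could be split, so their levels are uncertain. Among all genes tested in KO neutrophils, 4.62% were at least 4-fold higher and 5.97% lower than in KO monocyte-gated cells, and 5.5% higher and 7.95% lower than in KO macrophage-gated cells. Of the 249 genes, 185 were tested in KO neutrophils, and 129 of them were at least 4-fold over both classes there too.

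Specific granule genes were uneven between cells. In WT neutrophils 1 cell held 313 of 315 UMIs of Ngp, 280 of 281 of Camp and 147 of 148 of Ltf, which encode antimicrobial granule proteins. That cell had 8843 UMIs and also held 147 of the 399 WT Lcn2 UMIs and 36 of 38 Chil3 UMIs. Lcn2, an iron-chelator-binding protein of specific granules, had a UMI in 11 of 23 KO cells and 49 of 109 WT cells, and Pglyrp1, a bacterial wall-binding protein, in 19 KO cells and 58 WT cells. In B cells Lcn2 was at 0% in KO and 0.26% in WT, and Pglyrp1 at 21.04% in KO and 16.7% in WT. Gelatinase and late-maturation genes ranged from Msrb1 to Mmp25, a membrane-bound metalloproteinase with a UMI in 4 of 23 KO cells and 8 of 109 WT cells. Mmp8, a collagenase, had a UMI in 12 KO cells and 30 WT cells, and Padi4, which converts arginine in histones to citrulline, in 5 KO cells and 18 WT cells. Msrb1, which repairs oxidised methionine, had a UMI in 22 of 23 KO cells and 107 of 109 WT cells, against 14.3% of KO B cells and 13.02% of WT B cells.

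Neutrophils varied along an axis with Retnlg, Csf3r and Cxcr2, all genes of the gate, at one end and Cxcl2 and Hilpda at the other. Clustering of the 132 cells gave 2 clusters, called Retnlg-high and Hilpda-high by genes they were built from, so the differences between them are descriptions. The Retnlg-high cluster held 19 KO and 59 WT cells, the Hilpda-high cluster 4 KO and 50 WT cells, and these sizes are not compared between genotypes. The name Hilpda-high describes mainly the WT cells: 43 of the 50 WT cells but 2 of the 4 KO cells there had a Hilpda UMI. The median S100a8 and S100a9 sum was 1420 per 10000 UMIs in KO and 1313 in WT cells of the Retnlg-high cluster, and 260 in KO and 240 in WT cells of the Hilpda-high cluster. The median mitochondrial share was 0.821% in KO and 0.628% in WT Retnlg-high cells and 1.74% in KO and 1.71% in WT Hilpda-high cells. UMI depth was alike, with medians of 3029 in WT Retnlg-high cells and 2838 in WT Hilpda-high cells.

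**Figure D2:**
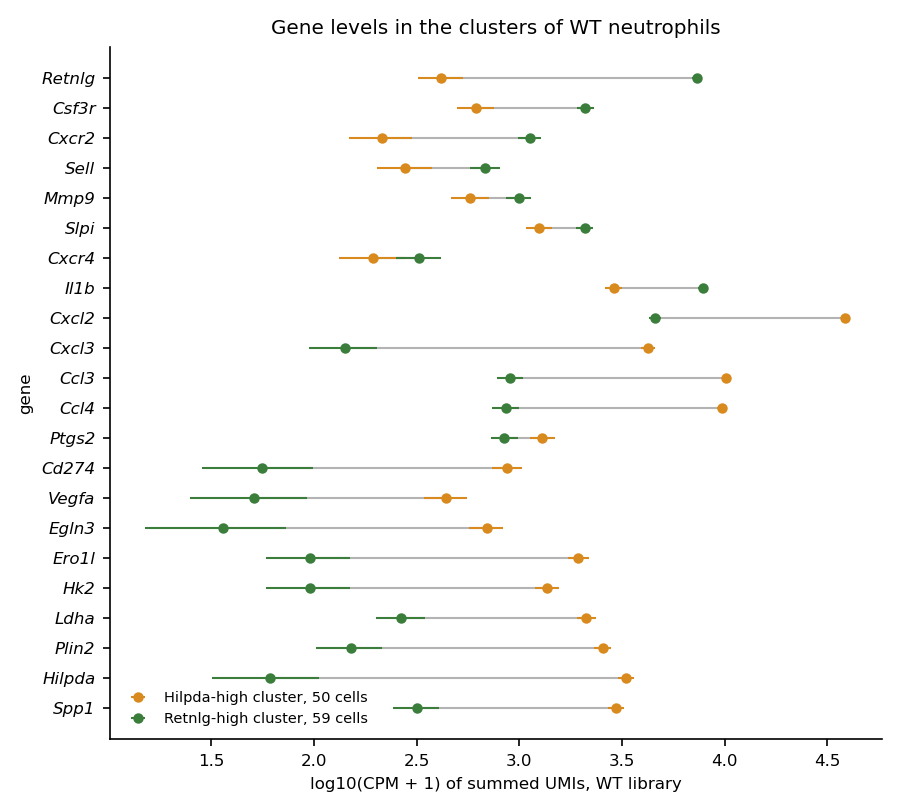
Level of 22 genes in the Hilpda-high (50 cells) and Retnlg-high (59 cells) clusters of the WT library, as log10(CPM + 1) of summed UMIs, with 95% counting intervals and a grey line joining the clusters. Cxcl2 stands at 38366 CPM in Hilpda-high and 4567 CPM in Retnlg-high cells, and Il1b at 2879 CPM in Hilpda-high and 7837 CPM in Retnlg-high cells.

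Of 6 chemokine genes with at least 50 UMIs in the 2 WT clusters, 4 were at least 2-fold higher in Hilpda-high cells and 1 in Retnlg-high cells, and of 14 glycolysis and hypoxia genes 12 were so in Hilpda-high cells and 0 in Retnlg-high cells. Ccl2 was the chemokine on the other side, at 103.5 CPM in WT Hilpda-high cells and 701 CPM in WT Retnlg-high cells. Its place there rests on 1 cell, which held 132 of the 140 Ccl2 UMIs of WT Retnlg-high cells. Cxcl2 was 38366 CPM in WT Hilpda-high cells and 4567 CPM in WT Retnlg-high cells. Ccl3 was 10162 CPM in WT Hilpda-high cells and 901 CPM in WT Retnlg-high cells. Hilpda encodes a protein that inhibits lipid breakdown at lipid droplets, and it was 3299 CPM in WT Hilpda-high cells and 60.1 CPM in WT Retnlg-high cells. Plin2, a coat protein of lipid droplets, was 2542 CPM in WT Hilpda-high cells and 150 CPM in WT Retnlg-high cells. The glycolytic enzyme Hk2 was 1365 CPM in WT Hilpda-high cells and 95.1 CPM in WT Retnlg-high cells. Cd274, which encodes the checkpoint ligand PD-L1, was on the same side, at 873 CPM in WT Hilpda-high cells and 55.1 CPM in WT Retnlg-high cells. The share of all genes that differed 2-fold between the WT clusters was not counted, here or for the receptors and adhesion genes that follow. These counts therefore cannot show whether a list differed more than other genes.

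Receptors lay on both sides. Of 23 with at least 50 UMIs in the 2 WT clusters, 7 were at least 2-fold higher in Hilpda-high cells and 5 in Retnlg-high cells, and of 6 adhesion genes 0 were so in Hilpda-high cells and 4 in Retnlg-high cells. Clec4e, a lectin receptor, was 1928 CPM in WT Hilpda-high cells and 591 CPM in WT Retnlg-high cells. Cd14, a co-receptor for bacterial lipopolysaccharide, was 919 CPM in WT Hilpda-high cells and 300.4 CPM in WT Retnlg-high cells. Csf3r was 615 CPM in WT Hilpda-high cells and 2098 CPM in WT Retnlg-high cells, and Cxcr2 was 213 CPM in the Hilpda-high and 1122 CPM in the Retnlg-high WT cells. Both are among the 5 receptors higher in Retnlg-high cells, and both are genes of the gate. Selplg, the ligand for P-selectin on vessel walls, was 84.1 CPM in WT Hilpda-high cells and 686 CPM in WT Retnlg-high cells. Hp, haptoglobin, was 90.6 CPM in WT Hilpda-high cells and 1152 CPM in WT Retnlg-high cells. The ends of the axis overlapped in some cells: of 109 WT cells, 13 had a Hilpda and a Retnlg UMI, 34 Hilpda without Retnlg, 53 Retnlg without Hilpda, and 9 neither. Of 23 KO cells, 0 had both, 2 Hilpda without Retnlg, 20 Retnlg without Hilpda, and 1 neither.

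**Figure D3:**
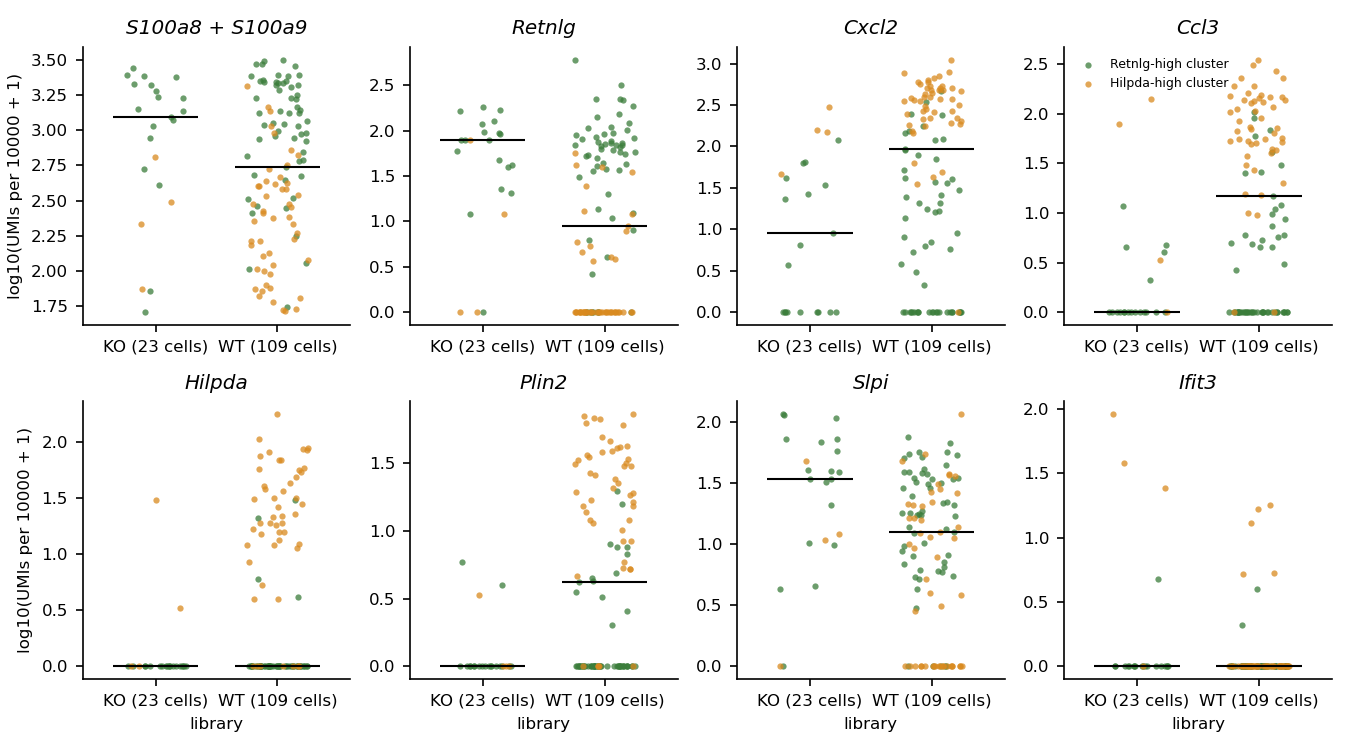
Each point is 1 neutrophil, by library and coloured by cluster, on a log10(UMIs per 10000 + 1) axis, with the library's median as a line. Cxcl2 spans 0 to 1113 in WT cells and 0 to 299.8 in KO cells, and Hilpda is 0 in all 19 Retnlg-high KO cells.

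Between genotypes, 1158 genes had at least 50 UMIs over both libraries, of which 60 (5.18%) were at least 2-fold higher in KO neutrophils and 171 (14.8%) at least 2-fold lower. Of these, 60 higher and 152 lower genes had a counting interval that excluded equal levels. The median log2 ratio over the 1158 genes was -0.02. The shares of 5.18% and 14.8% are the background for each count of list members between all gated cells below. The KO side rests on 23 cells, and without the cell with most UMIs of a gene the count of higher genes was 26. Ccl7, among the lowest, had 96.4% of its WT UMIs in 1 cell and a log2 ratio of -5.15 from 1 KO UMI (-10.46 to -2.65).

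Chemokine genes were mostly lower in KO neutrophils. Of 6 with enough UMIs, 5 were at least 2-fold lower and 1 was higher, with a median log2 ratio of -2.26, and the same genes had a median of -0.12 in monocyte-gated cells of the 2 libraries. Cxcl2, which attracts Cxcr2-bearing neutrophils, was 4479 CPM in KO neutrophils (4014 to 4983) and 19315 CPM in WT neutrophils (18860 to 19778), a log2 ratio of -2.11 (-2.27 to -1.95). A Cxcl2 UMI was seen in 14 of 23 KO cells and 85 of 109 WT cells. After thinning each cell to 1500 UMIs, which left out 6 WT cells, the share with a Cxcl2 UMI was 56.5% of KO neutrophils and 74.8% of WT neutrophils. The same share was 1.22% in KO B cells and 3.43% in WT B cells, which should lack the gene and had median depths of 3557.5 and 3428 UMIs.

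The other chemokines with enough UMIs were Cxcl3, Ccl2, Ccl3, Ccl4 and Ccl6. Cxcl3, a close relative of Cxcl2, was 186 CPM in KO and 1933 CPM in WT (log2 -3.38), with 85.7% of the KO UMIs in 1 cell. Ccl3 was 928 CPM in KO and 4942 CPM in WT (log2 -2.41, interval -2.78 to -2.07). The sizes moved with the gate. With an S100 threshold of 25, which gave 25 KO cells, the ratio was -1.01 for Ccl3 and -1.24 for Cxcl3. With 100 it was -3.25 for Ccl3 and -6.00 for Cxcl3. Ccl4 was 1855 CPM in KO and 4697 CPM in WT (log2 -1.34), and 66.4% of its KO UMIs lay in 1 cell. The Ccl4 ratio was short of 2-fold with a threshold of 25 (-0.80) and with 2 receptor UMIs required (-0.89). With a threshold of 100 it was -2.46. Ccl6 was the one higher, at 3631 CPM in KO and 1747 CPM in WT (log2 1.06), with a UMI in 23 of 23 KO cells and 82 of 109 WT cells, against 5.49% of KO B cells and 5.39% of WT B cells. Its ratio was short of 2-fold with an S100 threshold of 100 (0.67), without cells holding a C1q UMI (0.84) and among Retnlg-high cells (0.72). With 2 receptor UMIs required it stayed past 2-fold (1.06). Ccl2, a monocyte attractant, was 53.0 CPM in KO and 440 CPM in WT (log2 -3.05), but 84.6% of its WT UMIs lay in 1 cell and without 4 such WT cells the ratio was -0.24.

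Promoters of Cxcl2 and Cxcl3 are shown because both genes, neighbours on chromosome 5, were lower in KO neutrophils. RefSeq sequence of the GRCm38.p6 assembly was read for the 250 bases before the start of Cxcl2 and Cxcl3, with capitals marking the NF-kB motif, GGGAA directly followed by TTTCC. The motif was searched on both strands.
Cxcl2 (chr5:90903649-90903898, + strand): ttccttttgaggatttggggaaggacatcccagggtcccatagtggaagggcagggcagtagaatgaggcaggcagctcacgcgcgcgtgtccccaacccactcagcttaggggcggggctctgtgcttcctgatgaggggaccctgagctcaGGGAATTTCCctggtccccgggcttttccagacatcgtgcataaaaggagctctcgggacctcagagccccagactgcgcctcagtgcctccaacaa
Cxcl3 (chr5:90785851-90786100, + strand): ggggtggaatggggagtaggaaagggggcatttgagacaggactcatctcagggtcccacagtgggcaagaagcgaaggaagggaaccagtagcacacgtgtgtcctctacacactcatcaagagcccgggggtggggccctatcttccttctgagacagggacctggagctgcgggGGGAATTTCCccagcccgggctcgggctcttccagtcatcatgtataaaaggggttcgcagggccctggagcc
The motif starts 97 bases before the start of Cxcl2 and 73 before that of Cxcl3. It occurred in 28 of 32851 such regions (0.0852%) and in 3 of 8 chemokine genes found in the table, Cxcl1, Cxcl2 and Cxcl3. A match describes letters, not binding.

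**Figure D4:**
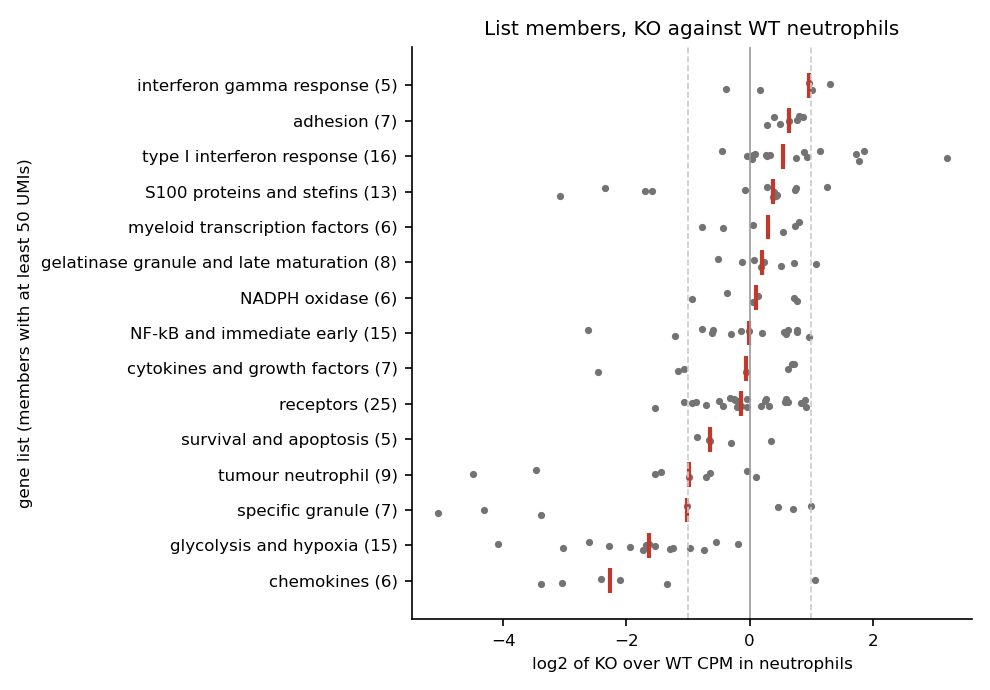
KO over WT log2 ratio in neutrophils of each list member with at least 50 UMIs (grey points), with the median of each list (red bar), the number of genes in brackets and dashed lines at 2-fold. Of 15 glycolysis and hypoxia genes 11 lie below the lower dashed line and 0 above the upper one, and of 16 type I interferon genes 5 lie above the upper and 0 below the lower.

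Glycolysis and hypoxia genes were lower in KO neutrophils for 11 of 15 tested and higher for 0, with a median log2 ratio of -1.63. The Hilpda-high cluster, where 12 of 14 of them were higher among WT cells, held 4 of the 23 KO cells and 50 of the 109 WT cells. Its size moved with the clustering resolution, to 6 KO and 61 WT cells at 0.3 and 0 KO and 17 WT cells at 1.0. Whether the cluster sizes bear on the KO ratios was not tested. Among Retnlg-high cells 7 of the glycolysis and hypoxia genes were tested, 1 was at least 2-fold lower in KO (Eno1, log2 -1.42) and the median was -0.46. Of all 704 genes tested in those cells 6.82% were lower, and 7 genes are too few to set against that share. The 15 genes had a median of 0.22 in monocyte-gated cells. Ero1l, an oxidoreductase for protein folding, was 53.0 CPM in KO (14.4 to 136) and 900 CPM in WT (804 to 1005), a log2 ratio of -4.09, with 3 of the 4 KO UMIs in 1 cell. Hk2, hexokinase, was 79.5 CPM in KO and 649 CPM in WT (log2 -3.03), with all KO UMIs in 1 cell. Bnip3, a mitochondrial protein of the hypoxia response, was 92.8 CPM in KO and 565 CPM in WT (log2 -2.61). Ldha, lactate dehydrogenase, was 278 CPM in KO and 1075 CPM in WT (log2 -1.95). Gapdh, a glycolytic enzyme of nearly every cell, was 888 CPM in KO and 2097 CPM in WT (log2 -1.24), and it was short of 2-fold among Retnlg-high cells (log2 -0.95). Of the 4 that did not pass 2-fold, Pkm was 557 CPM in KO and 1092 CPM in WT (log2 -0.97). Slc2a3, a glucose transporter, was 239 CPM in KO and 271 CPM in WT (log2 -0.18).

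The list of genes described in tumour neutrophils had 4 of 9 tested genes at least 2-fold lower and 0 higher. Hilpda was 133 CPM in KO (63.5 to 244) and 1473 CPM in WT (1350 to 1605), a log2 ratio of -3.47, with 90.0% of the KO UMIs in 1 cell. A Hilpda UMI was present in 2 of 23 KO cells and 47 of 109 WT cells, that is 8.70% and 43.1%, against 9.76% of KO B cells and 8.67% of WT B cells. The KO share was thus close to that of KO B cells, and whether B cells lack the gene was not tested. Plin2 was 53.0 CPM in KO and 1194 CPM in WT (log2 -4.49), in 3 of 23 KO cells and 59 of 109 WT cells, against 4.88% of KO B cells and 4.84% of WT B cells. Ctsb, a lysosomal protease, was 318 CPM in KO and 926 CPM in WT (log2 -1.54), and 1 WT cell with 9144 UMIs, the one with most C1qa UMIs, held 100 of its 328 WT UMIs. Without cells holding a C1q UMI the Ctsb ratio was -0.91, short of 2-fold. Spp1, the osteopontin gene, was 543 CPM in KO and 1471 CPM in WT (log2 -1.44), with all its KO UMIs in 1 cell. Cd274 was 265 CPM in KO and 412 CPM in WT (log2 -0.64) and did not pass 2-fold.

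Promoters of Plin2 and Ldha are shown as a lipid droplet gene and a glycolysis gene that were lower in KO neutrophils. Sequence is from RefSeq (GRCm38.p6), and capitals mark ACGTG or GCGTG, the core of the hypoxia response element, on either strand.
Plin2 (chr4:86670060-86670309, - strand): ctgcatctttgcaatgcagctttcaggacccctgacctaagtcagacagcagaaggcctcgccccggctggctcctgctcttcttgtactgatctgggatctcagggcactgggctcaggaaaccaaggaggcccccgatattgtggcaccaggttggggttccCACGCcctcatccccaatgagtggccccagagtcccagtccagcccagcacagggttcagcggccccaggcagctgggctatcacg
Ldha (chr7:46845554-46845803, + strand): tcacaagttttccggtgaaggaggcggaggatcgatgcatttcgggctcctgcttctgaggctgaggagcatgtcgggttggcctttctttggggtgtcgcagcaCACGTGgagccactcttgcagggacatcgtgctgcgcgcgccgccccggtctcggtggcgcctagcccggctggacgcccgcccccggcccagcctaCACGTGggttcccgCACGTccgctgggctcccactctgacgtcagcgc
Plin2 held 1 match, 86 bases before the start, and Ldha 5 matches between 145 and 34 bases before it, some of them overlapping on opposite strands. Ldha has 2 start sites in the table, and the one listed first was used. The core is common, in 38.6% of 32851 regions, and it lay in 14 of 17 glycolysis and hypoxia genes.

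Some type I interferon response genes were higher in KO neutrophils. Of 16 tested, 5 were at least 2-fold higher and 0 lower, with a median log2 ratio of 0.54, and in monocyte-gated cells the same genes had a median of 0.75. Among Retnlg-high cells 8 of them were tested, and 0 were at least 2-fold higher and 0 lower in KO. Of all 704 genes tested there 1.42% were higher and 6.82% lower, so 0 of 8 does not set the list apart. Ifit3, an interferon-induced antiviral gene, was 596 CPM in KO (435 to 798) and 64.9 CPM in WT (41.2 to 97.4), a log2 ratio of 3.20. It had a UMI in 4 of 23 KO cells and 7 of 109 WT cells, against 3.96% of KO B cells and 2.94% of WT B cells, and 53.3% of the KO UMIs lay in 1 cell. Ifit3 has a near-identical neighbour, Ifit3b, so its level is uncertain. Ifit1, of the same antiviral family, was 398 CPM in KO and 110 CPM in WT (log2 1.85), with 43.3% of the KO UMIs in 1 cell and 26 of the 30 KO UMIs in the 4 Hilpda-high cells. Irf7, an interferon regulatory factor, was 398 CPM in KO and 116 CPM in WT (log2 1.78), with 19 of 30 KO UMIs in those 4 cells. Isg15 and Rsad2 did not pass 2-fold: Isg15, a ubiquitin-like modifier, was 848 CPM in KO and 869 CPM in WT.

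The 4 KO cells placed in the Hilpda-high cluster held most KO Ifit3 UMIs. Of these 4 cells, 2 had a Hilpda UMI, 1 a Plin2 UMI and 2 a Retnlg UMI. Ifit3 was 3465 CPM in KO and 123 CPM in WT Hilpda-high cells, and 15.9 CPM in KO and 20.03 CPM in WT Retnlg-high cells. Among Retnlg-high cells the log2 ratio was 0.50 for Ifit1, from 4 KO and 9 WT UMIs, and 0.81 for Irf7, from 11 KO and 20 WT UMIs. Of the interferon gamma list, 2 of 5 tested genes were higher. Irf1, a transcription factor, was 490 CPM in KO and 243 CPM in WT (log2 1.01). Ifngr2, a receptor chain for interferon gamma, was 252 CPM in KO and 102 CPM in WT (log2 1.31).

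Ifit1 and Ifit3 were the interferon genes of largest ratio among those tested, and their promoters (RefSeq, GRCm38.p6) are printed with the interferon response motif, GAAA, any 2 bases and GAAA again, in capitals, on either strand.
Ifit1 (chr19:34640639-34640888, + strand): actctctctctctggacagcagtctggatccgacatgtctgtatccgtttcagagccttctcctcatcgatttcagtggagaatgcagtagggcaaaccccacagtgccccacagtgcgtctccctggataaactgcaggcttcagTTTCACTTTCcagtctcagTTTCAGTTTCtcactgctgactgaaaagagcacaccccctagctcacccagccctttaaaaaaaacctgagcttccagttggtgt
Ifit3 (chr19:34583279-34583528, + strand): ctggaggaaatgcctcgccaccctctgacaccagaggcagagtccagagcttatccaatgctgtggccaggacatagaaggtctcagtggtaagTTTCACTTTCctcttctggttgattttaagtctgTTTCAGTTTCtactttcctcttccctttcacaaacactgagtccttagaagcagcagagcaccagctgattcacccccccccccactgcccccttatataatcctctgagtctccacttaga
Both held 2 matches, at 104 and 85 bases before the start of Ifit1 and at 156 and 122 before that of Ifit3. The motif lay in 2.98% of 32851 regions and in 8 of 21 genes of the interferon list.

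Granule and secretory genes were mixed. Slpi, a protease inhibitor of mature neutrophils, was 3631 CPM in KO and 1719 CPM in WT (log2 1.08), with a UMI in 21 of 23 KO cells and 84 of 109 WT cells, against 3.96% of KO B cells and 1.38% of WT B cells. The Slpi ratio was short of 2-fold with an S100 threshold of 100 (0.89), without cells holding a C1q UMI (0.86) and among Retnlg-high cells (0.92). With 2 receptor UMIs required it stayed past 2-fold (1.07). Hp was 1378 CPM in KO and 689 CPM in WT (log2 1.00), and it was short of 2-fold with 2 receptor UMIs required (0.76), with an S100 threshold of 100 (0.91) and without cells holding a C1q UMI (0.89). Of 7 specific granule genes tested, Hp was the one higher and 4 were lower (Ngp, Camp, Ltf and Lcn2). The cell with most Ngp, Camp and Ltf UMIs also held 147 of the 399 WT Lcn2 UMIs, and without the top cell of each library the Lcn2 ratio was -0.72, short of 2-fold. Camp was at 0 in KO and 793 CPM in WT, with 99.6% of the WT UMIs in 1 cell. Ngp was 26.5 CPM in KO and 889 CPM in WT, with 99.4% of the WT UMIs in 1 cell. Of 13 S100 and stefin genes, 1 was higher and 4 lower. Cstdc4, a stefin, was 252 CPM in KO and 2125 CPM in WT (log2 -3.08). In each library 1 cell held a large part of its UMIs, 47.4% in KO and 34.5% in WT. The Cstdc4 ratio was short of 2-fold with an S100 threshold of 25 (-0.35) and stayed past it with 100 (-2.85). Stfa1, another stefin, was at 0 in KO against 203 CPM in WT. With KO set to 3 UMIs it was 5.11-fold lower in KO, a value that depends on that setting. Cstb, which inhibits cathepsins, was 424 CPM in KO and 1380 CPM in WT (log2 -1.70). The one higher, S100a4, had 95.8% of its KO UMIs in 1 cell.

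Of 25 receptors tested, 0 were at least 2-fold higher in KO neutrophils and 2 were lower. Over all 1158 genes tested, 5.18% were at least 2-fold higher and 14.8% lower, so the receptor count was under the share of all genes. Fpr2, a formyl peptide receptor, was 79.5 CPM in KO and 231 CPM in WT (log2 -1.54). Ltb4r1, a leukotriene B4 receptor, was 66.3 CPM in KO and 138 CPM in WT (log2 -1.06, interval -2.75 to 0.26). Of 7 cytokine genes 3 were lower. Vegfa, a vessel growth factor, was 39.8 CPM in KO, from 3 UMIs in 1 cell, and 220 CPM in WT (log2 -2.47, interval -4.78 to -0.87). Csf1, a macrophage growth factor, was 239 CPM in KO and 500 CPM in WT (log2 -1.07). Its ratio was short of 2-fold with an S100 threshold of 25 (-0.81) and without cells holding a C1q UMI (-0.72), and past it with 100 (-1.39). Tnf, an inflammatory cytokine, was 79.5 CPM in KO and 178 CPM in WT (log2 -1.16). The Tnf ratio was short of 2-fold with a threshold of 25 (-0.75) and with no receptor UMI required (-0.27), and past it with 100 (-2.49). Il1b was 8759 CPM in KO and 5673 CPM in WT (log2 0.63), short of 2-fold. No gene among 7 adhesion, 6 NADPH oxidase, 5 survival or 6 transcription factor genes tested passed 2-fold. Of 15 NF-kB and immediate early genes, Jun and Ier3 were lower and 0 were higher, a count near the share of all genes that were lower. Ier3, an early stress response gene, was 557 CPM in KO and 3424 CPM in WT (log2 -2.62). Of 2 tested MHC class II genes H2-Eb1 was lower (log2 -1.88).

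Outside the lists, Plac8 was 795 CPM in KO and 167 CPM in WT (log2 2.26), with 60.0% of the KO UMIs in 1 cell, and the ratio was 3.23 without the 4 WT cells rich in other cell types' genes. Cst3, a secreted cystatin, was 1431 CPM in KO and 615 CPM in WT (log2 1.22), with a UMI in 21 of 23 KO cells and 68 of 109 WT cells. Inhba, an activin subunit, was 424 CPM in KO and 130 CPM in WT (log2 1.71), with 93.8% of the KO UMIs in 1 cell. Without the cell with most UMIs of Inhba, the ratio was -1.90. Csta2 was 13.3 CPM in KO, from 1 UMI, and 353 CPM in WT (log2 -4.73, interval -10.05 to -2.23), with 50.4% of the WT UMIs in 1 cell. Without its top cell of each library the ratio was -2.11, but no KO UMI was left and KO was set to 3 UMIs.

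**Figure D5:**
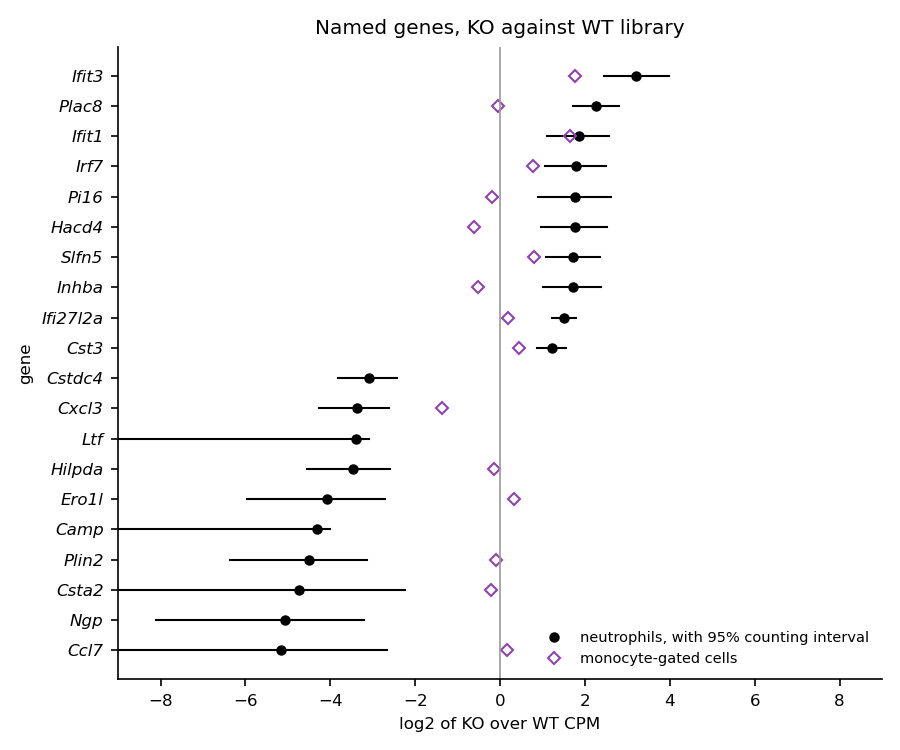
KO over WT log2 ratio of CPM for the 10 highest and 10 lowest genes by the interval bound nearest 0, in neutrophils (black points, 95% counting interval) and in monocyte-gated cells (open diamonds, where tested). Ifit3 stands highest in neutrophils at 3.20 and Ccl7 lowest at -5.15, and Camp and Ltf had 0 KO UMIs, so their intervals run off the axis.

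Within the Retnlg-high cluster, which holds 19 KO and 59 WT cells, 704 genes were tested, and 10 (1.42%) were at least 2-fold higher and 48 (6.82%) lower in KO. Of the 50 genes lower in all gated cells that were tested in the cluster, 33 were lower there too, and of 40 higher ones 8 were. Cxcl2 was 2119 CPM in KO and 4567 CPM in WT Retnlg-high cells (log2 -1.11). Ccl3 was 112 CPM in KO and 901 CPM in WT Retnlg-high cells (log2 -3.01). Plin2 was 47.8 CPM in KO and 150 CPM in WT Retnlg-high cells (log2 -1.65), from 3 KO and 30 WT UMIs, so it was not among the genes tested there. Ldha was 191 CPM in KO and 265 CPM in WT Retnlg-high cells (log2 -0.47) and did not pass 2-fold there. Ccl4 was 749 CPM in KO and 856 CPM in WT Retnlg-high cells (log2 -0.19), and it did not pass 2-fold either.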

How the data were processed

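Mouse CD45+ DAPI- cells of B16-F0 melanoma were profiled in 1 KO and 1 WT library, per the labels' protocols. The deposited counts are UMI counts per gene and barcode, made by the authors with Cell Ranger and STAR on mm10, per the submitters' processing notes; the matrix header gives version 5.0.0. Barcodes with at least 500 UMIs, at least 200 genes and at most 10% mitochondrial UMIs were kept, and neutrophils were gated as described above. UMIs were summed over gated cells of a library and scaled to 1000000 to give CPM, with exact Poisson intervals. Log2 ratios carry exact conditional binomial intervals, and shares Clopper-Pearson intervals (95%). A gene was tested between genotypes from 50 UMIs over both libraries and called at 2-fold, and between cell classes at 4-fold. A library at 0 was set to 3 UMIs. Monocyte-gated cells held Ly6c2 and Ccr2 UMIs, and macrophage-gated cells at least 5 C1q UMIs. PCR copies were collapsed by UMI, and intervals cover counting error only. Clustering used scanpy 1.11.5 with 1000 variable genes, 15 components, 15 neighbours and resolution 0.5. Scripts ran in Python 3.11.15 with numpy 2.4.6, scipy 1.17.1, pandas 2.3.3, scikit-learn 1.9.0 and igraph 0.11.9, and were tested on simulated data.

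Doublets were left in; Scrublet marked 0 KO barcodes, so it did not work there, and the cells with the highest scores were removed as an alternative. The named genes are the 20 of highest WT level, the 15 highest over both myeloid classes, the 10 highest and 10 lowest between genotypes by the interval bound nearest 0, the leading cluster genes, and members of the lists. Members and lists were chosen with earlier results of these data known. GENCODE M21 placed 32235 of 32285 features on GRCm38, and promoter sequences are from RefSeq GRCm38.p6. Clec7a and Mx1 are not analysed here.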

Additional observations from a re-analysis of the deposited data

Results flagged for a closer look

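In the WT library, 54 kept cells held S100a8 and S100a9 above the threshold and no lymphoid gene, but no UMI of Csf3r, Cxcr2 or Retnlg, and so are outside the gate and the comparisons above. They are listed because they carry neutrophil genes without having been reported on. Their median depth was 2907.5 UMIs, and S100a8 and S100a9 ranged over 65.2 to 1290 per 10000 UMIs, with a median of 278. Cxcl2 was 44404 CPM in them, Ccl3 13636 CPM and Hilpda 3249 CPM, where gated WT neutrophils had 19315, 4942 and 1473 CPM. The KO library held 3 such cells, with 37734 CPM of Cxcl2 and 1629 CPM of Hilpda. Whether they are neutrophils was not tested.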

How the results depend on the processing

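With 1 library per genotype no replicate can be left out. No paired analysis was possible because each genotype is 1 library, both numbered 1. The log2 share ratio stayed between -2.76 and -1.72 under every alternative run, against -2.24 in the report. Alternatives chosen after seeing the data were the S100 threshold of 500, no receptor UMI required, the Retnlg-high cluster alone, leaving out single cells, and other clusterings. The count of genes at least 2-fold higher in KO (60 in the report) was 36 with an S100 threshold of 100, 36 with 2 receptor UMIs, 114 with no receptor UMI required, 26 without the cell with most UMIs of a gene, 212 from 20 UMIs and 7 from 200 UMIs. It was 10 with a threshold of 500 and 10 within the Retnlg-high cluster. The count of lower genes (171) was 47 with the threshold of 500, 48 in that cluster, 441 from 20 UMIs and 44 from 200 UMIs. At clustering resolution 1.0 the Hilpda-high cluster held 17 WT cells, not 50. Of values of single genes under alternatives, 1170 stayed within the counting interval of the value in the report and 244 fell outside it. Another 8 changed sign from a ratio past 2-fold in the report. Inhba became -1.88 with a threshold of 100 and -1.90 without its top cell. Spp1 became 0.31 with no receptor UMI required and 1.17 with a threshold of 500. Isg20 became -0.29 with that threshold and -0.43 within the Retnlg-high cluster, where Ifit3 became -0.33. Ccl7 became 1.27 without its top cell of each library, a step that removed its 1 KO UMI. KO was then set to 3 UMIs, so the new sign depends on that setting and shows no higher level in KO. The cause was not tested. The 23 KO cells and 75468 KO UMIs limit what can be seen of genes under 50 UMIs.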
